A study of Homo sapiens with 20 samples.

Results

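Kinesins are the motor proteins that walk along microtubules, and their genes carry KIF symbols. The count table was searched for symbols of the form KIF with a number and an optional letter A to C, or KIFC with a number, and KIF1C was left out. This gave 40 kinesin genes among the 17113 protein-coding genes listed. They were set in 3 classes by their known role: 13 mitotic kinesins, 14 transport kinesins and 13 others. KIF2B, the remaining entry of the class list of 41 symbols, was not analysed here.

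Levels were measured in 10 human colorectal cancer cell lines, all labelled adenocarcinoma: LS1034 and LS513, labelled as from the cecum, and COLO-201, HCT 116, HT-29, LoVo, LS123, SNU-C1, SW480 and WiDr, labelled as from the colon. Each line gave 1 library of total RNA from its cells and 1 from the extracellular vesicles, the membrane-bound particles that cells release into the medium, so there are 20 libraries. No line was treated, all grew with fetal bovine serum in RPMI-1640 or DMEM, and the series asks whether vesicle RNA mirrors the RNA of the cells it came from. Cell libraries used a stranded kit that removes ribosomal RNA, and vesicle libraries were amplified with SMART-Seq v4 and finished with Nextera XT, so compartment and library kit cannot be told apart in any comparison below. There is 1 library per line and compartment, so lines serve as replicates (n = 10) and the spread among repeat cultures is unknown.

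Total counts were 24.8 to 37.4 M in cell libraries and 1.75 (SNU-C1) to 24.4 M (HT-29) in vesicle libraries. Levels are given as CPM, counts per M after TMM scaling of library sizes, and a count of 0 allows up to 3 counts, or 0.0956 to 0.157 CPM in cells and 0.136 to 0.915 CPM in vesicles (counting error only). Vesicle libraries also carried reads on genes that cells hardly express. Scaled by exon length from 2073 genes that had 10 counts or fewer in each cell library, this read background was estimated at 2.07% (SW480) to 7.27% (LS513) of vesicle counts in COLO-201, HT-29, LS513, HCT 116 and SW480, and at 19.3% (LS1034) to 50.7% (SNU-C1) in the other 5 lines. Across the 10036 genes that averaged 10 CPM or more in cells, HT-29 and WiDr cells (r = 0.864 of their deviations from the mean of the cell libraries) and HCT 116 and LS123 cells (r = 0.806) lay far closer to each other than the next pair (r = 0.346), so these lines may not be independent.

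The labelled origin was checked on markers. All 13 colon epithelial markers were detected, and their summed level was 3616 to 25890 CPM in cells and 1827 to 19638 CPM in vesicles. EPCAM, the epithelial adhesion molecule, stood in cells at 2579 ± 1795 CPM and in vesicles at 274 ± 121 CPM (SD, n = 10). EPCAM and CDH1 had the greatest falls of the 13. KRT8, KRT18 and KRT19 averaged 4520, 3190 and 1607 CPM in cells and 3232, 2867 and 1503 CPM in vesicles. In the test described below 3 of the 13 were called lower and 0 higher, against 28.1% and 28.6% of all genes tested. Most markers of other cell types were low in cells and higher in vesicles. The 11 neuronal and neuroendocrine markers summed to 2.94 to 95.0 CPM in cells and 36.6 to 288 CPM in vesicles. The 8 fibroblast and endothelial markers summed to 0.787 to 20.6 CPM and 29.8 to 288 CPM. The 8 ciliated cell markers summed to 5.22 to 44.1 CPM and 16.3 to 197 CPM. The 7 leukocyte markers summed to 0.290 to 3273 CPM in cells, nearly all of it lysozyme (LYZ), and to 9.91 to 881 CPM in vesicles. LYZ, ENO2 and LUM had lower means in vesicles than in cells, with LYZ at 198 against 851 CPM.

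Mitotic kinesins build and move the spindle, align chromosomes and complete cytokinesis, and dividing cells make their mRNAs mainly in the G2 and M phases. Transport kinesins carry vesicles, organelles, protein complexes and mRNAs along interphase microtubules, most of them towards the plus ends at the cell periphery. In a proliferating colon epithelial line both kinds are needed, while several transport kinesins are known mainly from neurons and several of the others from cilia.

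Many G2 and M phase genes share a pair of short promoter elements: a CHR (cell cycle genes homology region), spelled TTTGAA or TTCGAA, and the CCAAT box that NF-Y binds. Both were searched on both strands in 300 bases per promoter, 250 before to 50 after the start, in RefSeq promoters of GRCh38.p14, which matched 32 of the 40 kinesins. The CHR letters were found in 11 of 13 mitotic, 1 of 10 transport and 1 of 9 other promoters, against 16.4% of 35116 promoters of this length, and CCAAT in 11 of 13, 3 of 10 and 3 of 9, against 34.6%. Both stood together in 10 of 13 mitotic promoters, in 1 transport promoter (KIF5B) and in 1 other (KIF24), against 6.38% of all. These matches are letters in a window and no evidence of binding. The 5 promoters below are shown because the mitotic genes KIF11, KIFC1 and KIF23 fell in vesicles, KIF15 is the abundant mitotic member that did not fall in vesicles, and KIF5B dominates the transport class. Each runs 5′ to 3′ on the gene's own strand from base -150 to base 50 around the start, with CHR and CCAAT letters (or their reverse complements TTCAAA and ATTGG) in capitals.
KIF11 (chr10:92592980-92593179, plus strand): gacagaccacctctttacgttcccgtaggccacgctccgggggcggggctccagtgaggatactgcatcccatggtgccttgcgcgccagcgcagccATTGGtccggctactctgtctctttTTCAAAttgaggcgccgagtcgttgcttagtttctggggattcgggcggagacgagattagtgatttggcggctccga
KIFC1 (chr6:33391673-33391872, plus strand): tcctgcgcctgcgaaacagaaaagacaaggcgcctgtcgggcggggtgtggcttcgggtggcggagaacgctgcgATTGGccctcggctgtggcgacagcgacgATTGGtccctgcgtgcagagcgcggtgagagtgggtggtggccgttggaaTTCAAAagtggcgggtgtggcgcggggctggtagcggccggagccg
KIF23 (chr15:69414199-69414398, plus strand): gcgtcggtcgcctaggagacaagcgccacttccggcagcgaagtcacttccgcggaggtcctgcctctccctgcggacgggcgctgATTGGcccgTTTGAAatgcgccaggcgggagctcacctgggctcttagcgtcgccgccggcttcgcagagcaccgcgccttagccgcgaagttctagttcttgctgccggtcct
KIF15 (chr3:44761644-44761843, plus strand): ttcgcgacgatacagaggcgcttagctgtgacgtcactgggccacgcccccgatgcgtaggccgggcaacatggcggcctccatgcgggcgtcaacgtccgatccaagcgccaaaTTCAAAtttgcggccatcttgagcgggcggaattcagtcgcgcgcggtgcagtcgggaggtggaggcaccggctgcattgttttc
KIF5B (chr10:32056376-32056575, minus strand): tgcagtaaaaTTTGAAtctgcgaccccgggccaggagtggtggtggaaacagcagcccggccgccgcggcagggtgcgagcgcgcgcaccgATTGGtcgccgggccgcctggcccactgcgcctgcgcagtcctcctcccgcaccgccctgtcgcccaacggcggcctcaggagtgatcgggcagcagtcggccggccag
In KIF11, KIFC1 and KIF23 a CCAAT box precedes the CHR, and in KIF11 the 2 elements start at -53 and -28. KIF15 has the CHR letters at -35 and no CCAAT box. In KIF5B the order is the opposite, with the CHR letters far upstream at -140 and the box at -59. Among the other mitotic promoters, KIF20A has CCAAT without the CHR letters and KIF2C has neither.

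Most mitotic kinesins were lower in vesicles than in the matching cells, and few transport kinesins were. Of the 13 mitotic members 11 were called lower in vesicles (edgeR quasi-likelihood test with cell line as a block, adjusted p under 0.05 over all genes), where 28.1% of 15130 genes tested were called lower and 28.6% higher. Among the 14 transport members 1 was lower and 6 were higher, and among the 12 others tested 1 was lower and 7 higher. KIF25 had too few counts to be tested. Of the 13 members called higher, 10 passed the filter on low counts only through their vesicle counts, so the filter favoured their direction. The other 3 (KIF9, KIF21B and KIFC2) reached its limit in all cell libraries. In all, 13 tested members needed vesicle counts, and of these KIF4B, KIF12 and KIF13A were not called.

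Limiting the view to genes that averaged 10 CPM or more in cells lessens that effect, although it favours falls. Of 10024 such genes 42.2% were lower and 5.29% higher, with a median log2 fold change (vesicle over cell) of -0.53. In this range 11 of 12 mitotic kinesins were lower, with a median of -1.16. Of 9 transport kinesins 1 was lower and 1 higher (median 0.17), and of 5 others 1 was lower and 2 higher (median 0.20). The transport member called higher, KIF3C, needed vesicle counts to pass the filter, with its limit reached in 9 cell libraries.

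**Figure D1:**
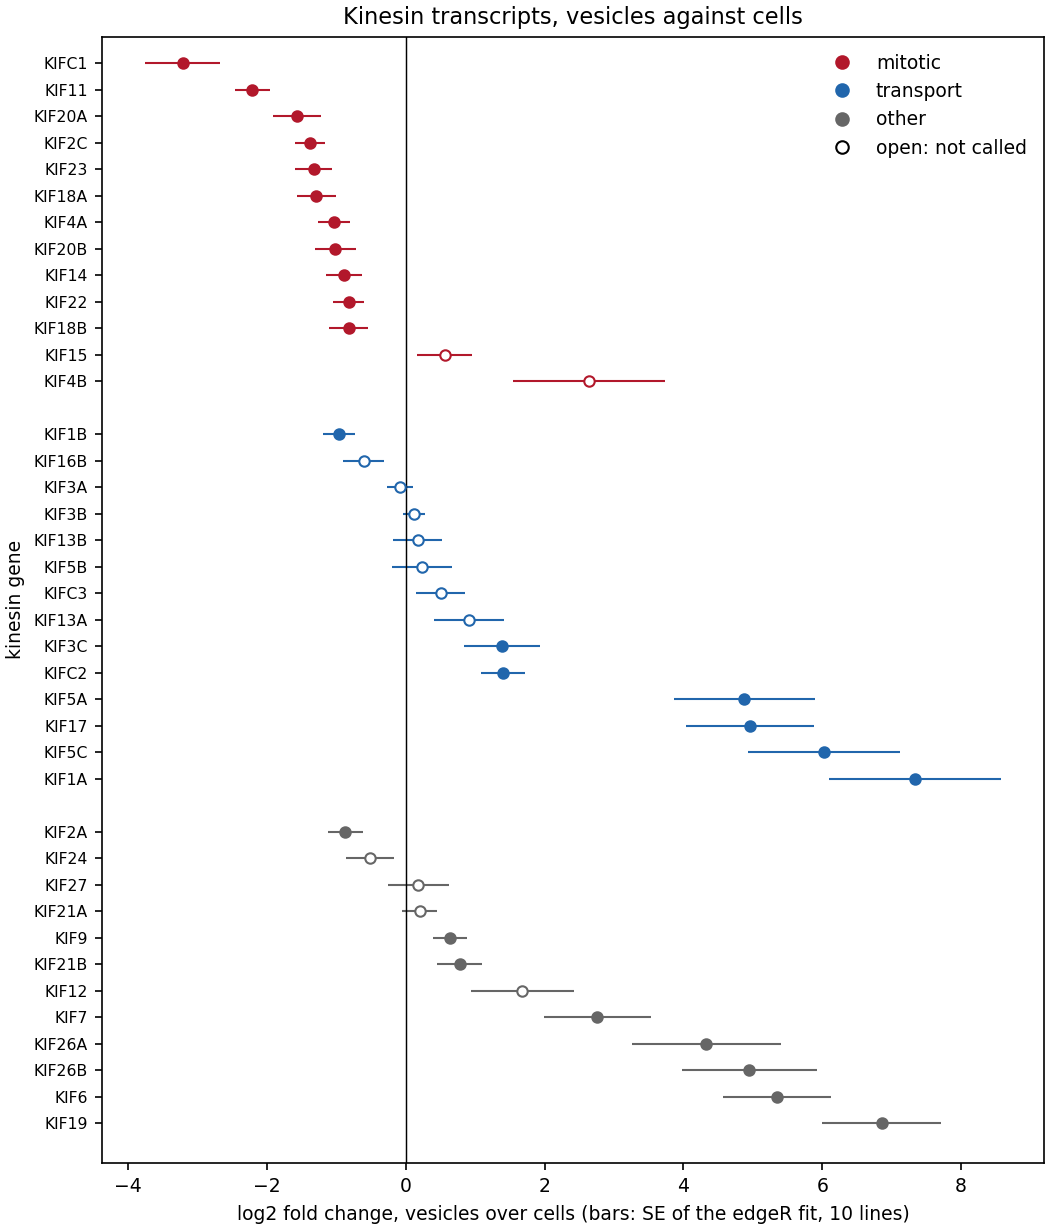
Log2 fold change of each tested kinesin, vesicles over cells, on the horizontal axis, with the genes on the vertical axis grouped by class. Points are edgeR estimates over 10 lines, bars are SE, filled points passed an adjusted p of 0.05 and open points did not. The 11 filled mitotic points lie between -3.21 and -0.82, while the transport points run from -0.96 (KIF1B) to 7.33 (KIF1A).

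The motors that set up the bipolar spindle held the 2 largest falls and an exception. KIF11 (Eg5), which slides antiparallel microtubules apart to separate the spindle poles, was the most abundant mitotic kinesin in cells per kb of exon, at 40.9 CPM per kb. Its level ran from 115 CPM (LoVo) through a median of 173 to 336 CPM (HCT 116) in cells and from 24.4 CPM (SNU-C1) through 34.8 to 76.8 CPM (HT-29) in vesicles. The compartments did not overlap. KIF11 was lower in vesicles in 10 of 10 lines, by -2.21 on the log2 scale (SE 0.25, edgeR adjusted p = 6.54e-06), and the difference within a line ran from -3.49 in HCT 116 to -1.29 in HT-29.

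KIFC1 (HSET), a minus-end motor that focuses spindle poles and clusters extra centrosomes, fell further. It ran from 13.9 (LoVo) through 26.5 to 45.9 CPM (LS123) in cells and from 0 (SNU-C1) through 2.28 to 13.6 CPM (HT-29) in vesicles. The compartments did not overlap, and the log2 fold change was -3.21 (SE 0.54, edgeR adjusted p = 0.000170). In SNU-C1, where the cells had 545 counts and the vesicles 0, the level was at least 21.6-fold lower against a limit of 3 counts in that vesicle library. Its vesicle counts were 2.65 times the expected read background over all lines, and above it in 5 of 10 lines.

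KIF15 (Hklp2), which can take over pole separation when KIF11 is inhibited, did not fall. It ran from 30.0 (LS513) through 53.4 to 84.0 CPM (HCT 116) in cells and from 28.1 (LS513) through 55.4 to 796 CPM (LS1034) in vesicles. The lines were split, with 5 higher and 5 lower in vesicles (log2 fold change 0.56, SE 0.39, edgeR adjusted p = 0.237). LS1034 stood apart, from 50.5 to 796 CPM on 1501 and 4530 counts, followed by COLO-201 from 56.3 to 173 CPM and HT-29 from 37.2 to 99.9 CPM. KIF15 passed the threshold as higher with DESeq2 (adjusted p = 0.0193), with library size alone, with upper-quartile scaling and without the line block.

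**Figure D2:**
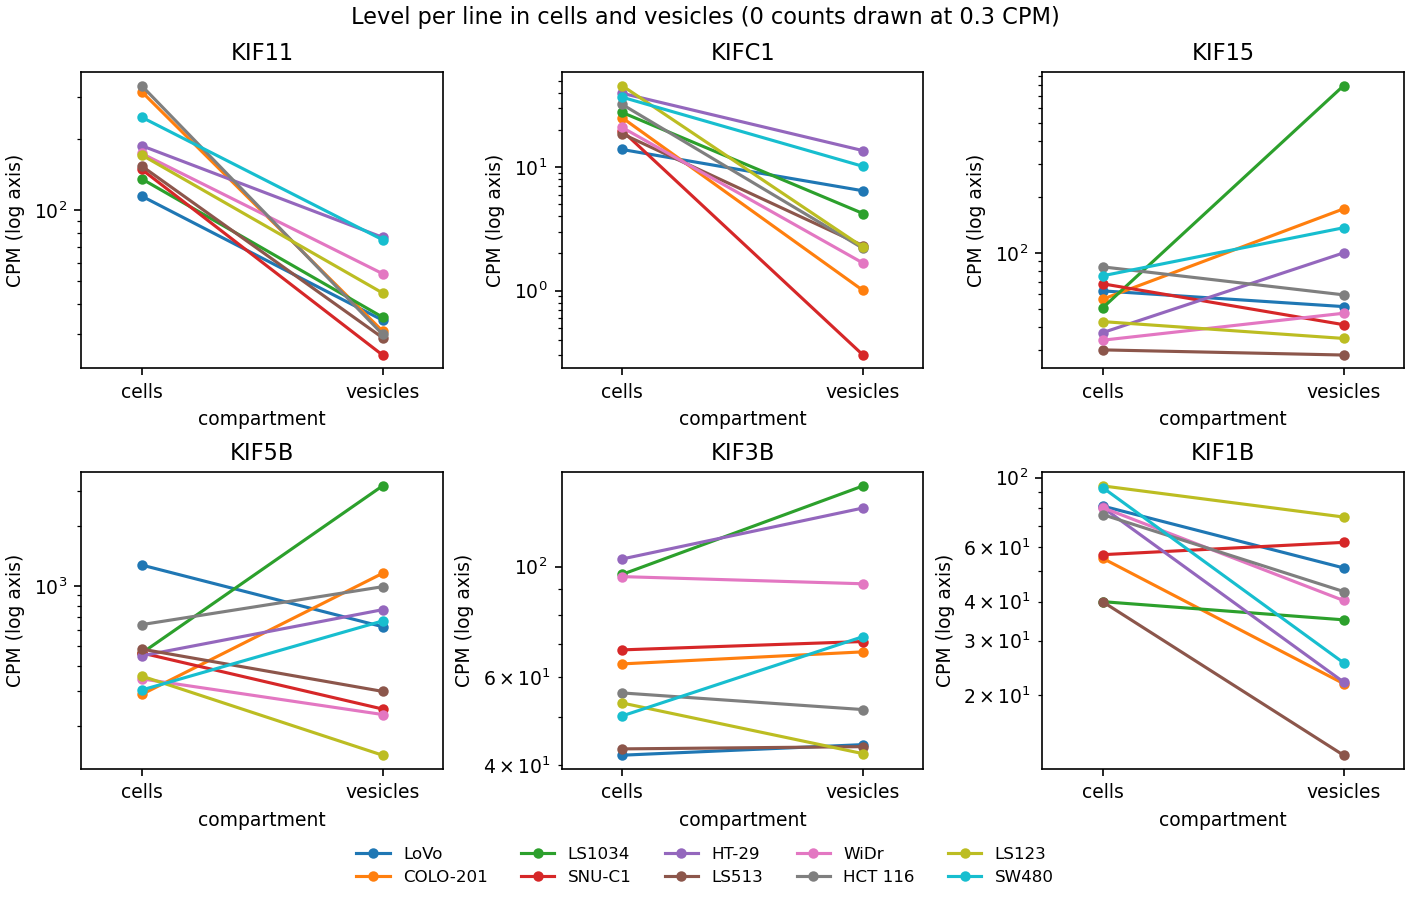
Level in each line (CPM after TMM scaling, log axis) of 6 kinesins in cells and vesicles, with a line joining the compartments of 1 cell line and a count of 0 drawn at 0.3 CPM. KIF11 and KIFC1 go down in every line without overlap, while KIF15 and KIF5B climb most in LS1034, to 796 and 3181 CPM, and KIF3B keeps nearly the same order of lines.

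All of the motors of chromosome alignment but KIF4B fell. KIF2C (MCAK), which depolymerises microtubules at kinetochores to correct wrong attachments, ran from 64.0 (LS1034) through 131 to 203 CPM (HCT 116) in cells and from 19.7 (SNU-C1) through 39.9 to 141 CPM (SW480) in vesicles. Its ranges overlapped, yet it was lower in 10 of 10 lines (log2 fold change -1.38, SE 0.22, edgeR adjusted p = 0.000112), least in SW480 at -0.19. KIF22 (Kid), a chromosome arm motor, ran from 63.6 through 131 to 241 CPM in cells and from 41.0 through 56.4 to 123 CPM in vesicles. It too was lower in 10 of 10 lines (-0.82, SE 0.22, edgeR adjusted p = 0.00498), but it was not called with the background subtracted (-0.22, adjusted p = 0.402) or in the 5 lines of lower background (-0.50, adjusted p = 0.0893).

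KIF18A, which damps chromosome oscillations at the metaphase plate, changed by -1.29 (SE 0.28) and its relative KIF18B by -0.82 (SE 0.28). KIF4A, a chromokinesin that also shortens the central spindle with PRC1, changed by -1.03 (SE 0.23) and was lower in 10 of 10 lines. These 3 were called, with edgeR adjusted p of 0.00127, 0.0226 and 0.00145. KIF4B, a near copy of KIF4A, had a mean of 0.535 CPM in cells and 5.19 CPM in vesicles and was not called (2.64, SE 1.09, adjusted p = 0.0509). Its vesicle counts were 0.820 times the expected background, and 14.0% of its windows of 50 bases also occur in KIF4A, so its value is uncertain.

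All 4 cytokinesis motors fell. KIF20A (MKLP2), which brings the chromosomal passenger complex to the central spindle, was lower in 10 of 10 lines (-1.57, SE 0.35, edgeR adjusted p = 0.00147), and in COLO-201 went from 73.5 to 4.22 CPM. KIF23 (MKLP1), the motor of the centralspindlin complex, changed by -1.33 (SE 0.26, edgeR adjusted p = 0.000633). KIF20B changed by -1.01 (SE 0.29) and KIF14, a partner of citron kinase at the midbody, by -0.89 (SE 0.26). HT-29 went the other way for KIF23, KIF20B and KIF18A, whose vesicle levels there were 201, 158 and 135 CPM against 165, 114 and 99.3 CPM in its cells. KIF14 in HT-29, and KIF20B and KIF14 in LS1034, were also higher in vesicles, by 0.19, 0.17 and 0.08 on the log2 scale.

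How many mitotic members passed depended on scaling. With DESeq2 size factors 7, with library size alone 6 and with upper-quartile scaling 3 (KIF11, KIFC1 and KIF2C) were called lower, while the median of all genes moved from 0.01 to 0.38, 0.48 and 0.76. Since a scaling shifts all genes alike, the class medians measured from the median of all genes stay in place by construction, at -1.04 for mitotic and 0.70 for transport kinesins with TMM. Subtracting the expected background, which can move them, gave -0.63 and 0.99. The test called 0 mitotic members higher, 1 at an unadjusted p under 0.05 (KIF4B), and DESeq2 called 2 (KIF15 and KIF4B). Leaving out LoVo moved the median of all genes to 0.35 and left 6 mitotic members called lower: KIF22, KIF4A, KIF20B, KIF14 and KIF18B no longer passed (adjusted p from 0.0544 to 0.181), and KIF18B also not without COLO-201 (0.0503). Without WiDr and LS123, each close to another line, 10 were lower.

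With the expected background subtracted, 6 of 12 mitotic members tested were lower (KIF11, KIFC1, KIF2C, KIF20A, KIF23 and KIF18A) and 0 higher, where 21.7% of 12973 genes were lower and 16.3% higher. In the 5 lines of lower background 7 of 13 were lower (KIF11, KIFC1, KIF2C, KIF20A, KIF4A, KIF14 and KIF18B), where 19.0% of 14793 genes were lower and 19.5% higher. KIF11, KIFC1 and KIF2C were called lower in each of the 20 fits made.

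Transport kinesins were led by KIF5B, the ubiquitous heavy chain of kinesin-1, which carries mitochondria, vesicles and RNA granules. It had the highest level per kb of all kinesins in both compartments, at 86.1 CPM per kb in cells and 141 CPM per kb in vesicles, and made up 65.3% ± 10.4 of the transport sum per kb in cells and 63.5% ± 21.3 in vesicles (SD, n = 10). In cells it ran from 287 (COLO-201) through 455 to 1276 CPM (LoVo), and in vesicles from 142 (LS123) through 648 to 3181 CPM (LS1034). The lines disagreed in direction, 5 higher and 5 lower, and the change of 0.24 on the log2 scale (SE 0.43, edgeR adjusted p = 0.655) did not pass. LS1034 went from 462 to 3181 CPM and COLO-201 from 287 to 1159 CPM, while LoVo, the line with most KIF5B in its cells, went from 1276 to 626 CPM. Without LS1034 it was -0.016, and with the background subtracted KIF5B was called higher (0.96, adjusted p = 0.0471). Its vesicle counts were 189 times the expected background.

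The kinesin-2 motors, which carry cargo in cilia and cytoplasm as KIF3A with KIF3B or KIF3C, held a pair of members that stood near their cell levels. KIF3B ran from 41.9 (LoVo) through 59.8 to 104 CPM (HT-29) in cells and from 42.2 (LS123) through 69.1 to 145 CPM (LS1034) in vesicles. Its log2 fold change was 0.12 (SE 0.16, edgeR adjusted p = 0.554), with line differences from -0.34 to 0.59, and over the 10 lines its log2 level in vesicles followed that in cells with r = 0.908. KIF3B was called higher with the background subtracted (0.67, adjusted p = 0.0128) and under each of the 3 other scalings (0.49 to 0.86). KIF3A ran from 17.3 (LS513) through 30.0 to 47.3 CPM (LoVo) in cells and from 12.5 (LS513) through 30.8 to 67.1 CPM (HCT 116) in vesicles, and did not pass (-0.08, SE 0.19, adjusted p = 0.729), its sign turning under those scalings.

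KIF3C was uneven: its level was 108 CPM in COLO-201 cells and 0.367 to 21.4 CPM in the other cells, against 9.25 to 36.5 CPM in vesicles. It was called higher (1.39, SE 0.55, edgeR adjusted p = 0.0433), although it fell short with the background subtracted (0.98, adjusted p = 0.301) and in the fits without HCT 116, HT-29, LS1034, LS123, LS513, SNU-C1 or WiDr (0.0539 to 0.0952). KIF3C also fell short in the 5 lines of lower background (0.65, edgeR adjusted p = 0.581) and without the line block (0.09, adjusted p = 0.923). COLO-201 went from 108 to 16.0 CPM.

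The kinesin-3 family, long-range carriers of membrane cargo, was divided. KIF1B, which carries mitochondria and synaptic vesicle precursors, was the 1 transport member called lower (-0.96, SE 0.23, edgeR adjusted p = 0.00294). It ran from 40.0 (LS513) through 78.1 to 94.1 CPM (LS123) in cells and from 12.8 (LS513) through 37.6 to 74.8 CPM (LS123) in vesicles, and was lower in every line but SNU-C1. The call was kept with the background subtracted (-1.94, adjusted p = 0.0292) and among the 5 low-background lines (-1.48, adjusted p = 0.00476), but not with DESeq2 size factors (-0.58, adjusted p = 0.0598), library size alone (-0.49) or upper-quartile scaling (-0.21). KIF16B, an early endosome motor, ran from 12.6 (LS123) through 52.2 to 111 CPM (LS1034) in cells and from 10.1 (HCT 116) through 30.8 to 156 CPM (LS1034) in vesicles (-0.60, SE 0.29, adjusted p = 0.0948). LoVo and LS513 had the largest drops, at -1.88 and -1.98, and LS1034, WiDr and LS123 were higher in vesicles. KIF13A (0.91) and KIF13B (0.17) did not pass.

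The minus-end motors KIFC2 and KIFC3 were also apart. KIFC2 ran from 2.43 (SW480) through 6.38 to 15.3 CPM (SNU-C1) in cells and from 5.87 (COLO-201) through 18.0 to 62.3 CPM (SNU-C1) in vesicles. KIFC2 was higher in 10 of 10 lines (1.40, SE 0.31, edgeR adjusted p = 0.00148), but was not called in the 5 lines of lower background (1.14, adjusted p = 0.0763). Of its exonic bases 17.8% overlap FOXH1 on the opposite strand, whose reads may be counted with it if strand was not used. KIFC3, a motor of adherens junctions and the Golgi, did not pass (0.50, SE 0.35, adjusted p = 0.239). It went from 4.72 to 59.2 CPM in SNU-C1.

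The transport kinesins best known from neurons were close to absent in the cells of most lines. KIF1A, the carrier of synaptic vesicle precursors, reached 21.0 CPM in SW480 and 7.86 CPM in COLO-201 cells and at most 0.476 CPM in the other cells, but 15.1 (COLO-201) through 38.4 to 116 CPM (SNU-C1) in all vesicle libraries. KIF5C reached 14.8 CPM in LS123 and 12.6 CPM in HCT 116 cells and at most 0.233 CPM in the others, and ran from 1.77 (HT-29) through 13.7 to 42.7 CPM (LS123) in vesicles. Its paralog KIF5A was high in the cells of the same lines, at 14.7 CPM in LS123 and 8.99 CPM in HCT 116, with at most 0.897 CPM elsewhere. The cells of these lines lie close to each other across genes that averaged 10 CPM or more in cells. Over all vesicle libraries LS123 and HCT 116 did not stand apart. KIF5C stood at 42.7 CPM in LS123 and 28.1 CPM in HCT 116 but also at 35.6 CPM in WiDr. KIF5A stood at 41.6 and 16.3 CPM but also at 38.4 CPM in WiDr, 32.9 CPM in SNU-C1 and 30.8 CPM in LoVo. WiDr, SNU-C1 and LoVo are lines of higher background, as is LS123. Among the 5 lines of lower background HCT 116 vesicles were highest for both genes. The others there had 1.77 (HT-29) to 8.61 CPM (LS513) of KIF5C and 2.04 (HT-29) to 9.38 CPM (LS513) of KIF5A.

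KIF1A, KIF5A, KIF5C and KIF17 were called higher in vesicles, with log2 fold changes of 7.33, 4.88, 6.03 and 4.96 that depend on the prior count, and all needed vesicle counts to pass the filter. Their vesicle counts were 2.74, 2.18, 1.33 and 2.20 times the expected background, and those of KIF5C were above it in 6 of 10 lines. In the 5 lines of lower background KIF1A was not called (5.19, edgeR adjusted p = 0.0666), while KIF5A, KIF5C and KIF17 were. With the background subtracted KIF1A, KIF5A and KIF17 were called, and KIF5C was not tested. Of the 11 neuronal and neuroendocrine markers 9 were called higher as well, and their part in these values was not tested. In SW480 and COLO-201, the lines whose cells express KIF1A and whose vesicles carry little background, KIF1A differed by 0.25 and 0.93. In the other lines of lower background, whose cells had at most 0.262 CPM (LS513), it differed by 7.95 (HT-29), 7.19 (HCT 116) and 6.19 (LS513). The cause of these differences was not tested.

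**Figure D3:**
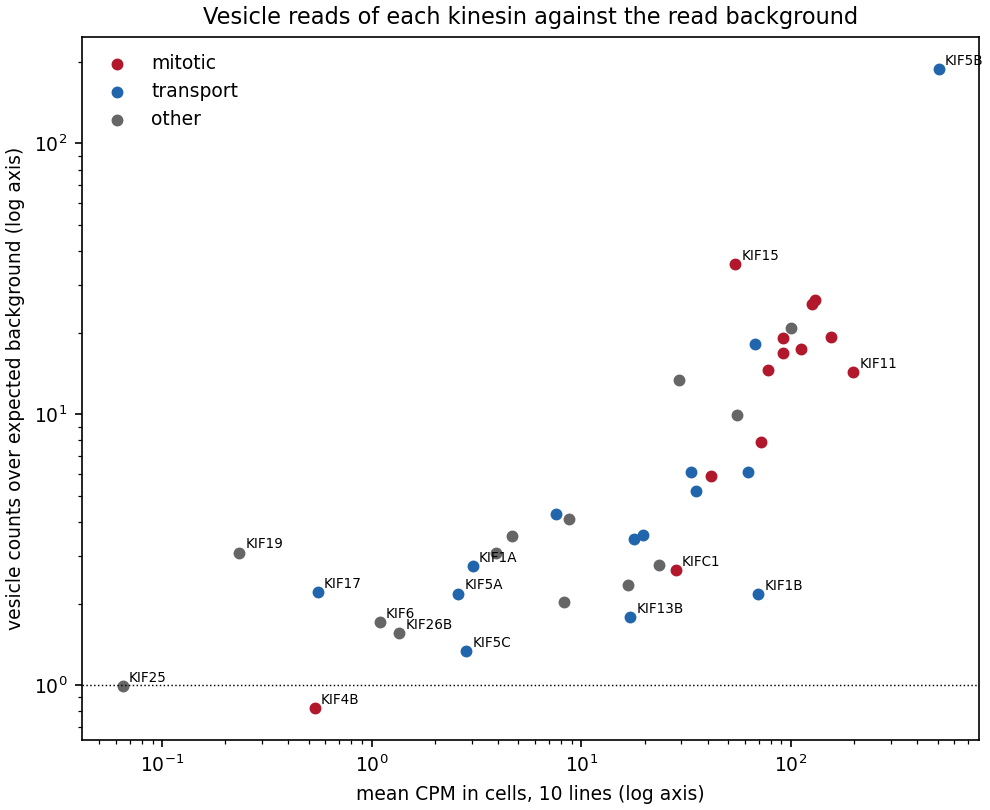
Vesicle counts of each kinesin, summed over 10 lines and divided by the counts expected from the read background (log axis, the dotted line marks equality), against its mean CPM in cells (log axis). KIF5B (189), KIF15 (35.8) and KIF11 (14.3) stand far above background, and KIF25 (0.990), KIF4B (0.820) and KIF5C (1.33) lie near the line. KIF25 is itself among the 2073 genes from which the background was estimated.

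Of the kinesins in neither class, KIF2A, a microtubule depolymerase of spindle poles and neurons, was the 1 called lower (-0.87, SE 0.25, edgeR adjusted p = 0.00855). It ran from 60.7 (LS123) through 97.7 to 150 CPM (LoVo) in cells and from 23.6 (LS123) through 52.8 to 104 CPM (COLO-201) in vesicles. COLO-201 and SW480 differed by only -0.08 and -0.03 and HT-29 was higher in vesicles, and KIF2A did not pass with the background subtracted (-0.45, adjusted p = 0.193), in the 5 lines of lower background (-0.26, adjusted p = 0.440), without LoVo (-0.41, adjusted p = 0.297) or under the 3 other scalings. KIF2A shares 8.97% of its exonic bases with IPO11 on the same strand.

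KIF9, a motor of cilia and flagella, was called higher (0.64, SE 0.24, edgeR adjusted p = 0.0335). It ran from 17.0 (LS123) through 27.7 to 47.6 CPM (WiDr) in cells and from 26.0 (SNU-C1) through 38.0 to 129 CPM (LS513) in vesicles, with the highest vesicle levels in LS513 and HT-29 (96.4 CPM). The call was kept with the background subtracted (0.94, adjusted p = 0.0265) and among the 5 low-background lines (1.20, adjusted p = 0.00728). It was lost in the fits without COLO-201, LS1034, HT-29, LS513, HCT 116 or SW480 (0.0545 to 0.0922). Antisense transcripts, mainly KIF9-AS1, overlap 17.9% of its exonic bases.

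KIF21A and KIF21B slow microtubule growth. KIF21A ran from 34.6 (LS513) through 56.1 to 82.0 CPM (LoVo) in cells and from 16.8 (LS513) through 66.0 to 133 CPM (HCT 116) in vesicles and did not pass (0.20, SE 0.25, adjusted p = 0.518). KIF21B, highest in LS513 cells at 80.4 CPM, was called narrowly (0.78, SE 0.32, edgeR adjusted p = 0.0495). It was not called with the background subtracted (adjusted p = 0.292) or in the 5 lines of lower background (0.34, adjusted p = 0.572). The call was also lost in the fits without COLO-201, HCT 116, HT-29, LS1034, LS123, SNU-C1 or WiDr (0.0588 to 0.112).

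KIF26A, an atypical kinesin that binds microtubules without moving on them, varied most between cell libraries. It reached 19.6 CPM in SW480, 9.88 CPM in LoVo and 9.45 CPM in LS123 cells and had 0 counts in COLO-201, HT-29, LS513 and WiDr cells, while vesicles ran from 3.79 (COLO-201) through 19.5 to 58.5 CPM (SNU-C1). Over the lines its log2 levels in cells and vesicles had r = 0.777, and the lines with 0 counts in cells had the 4 lowest vesicle levels. The cilium-linked kinesins KIF7, KIF19 and KIF6 were called higher with means of 3.89, 0.233 and 1.09 CPM in cells and 14.7, 20.5 and 23.0 CPM in vesicles, at 3.07, 3.08 and 1.70 times the expected background. KIF7, KIF19 and KIF6 all needed vesicle counts to pass the filter. KIF7 was not called in the 5 lines of lower background (2.37, edgeR adjusted p = 0.0767), while KIF19 and KIF6 were. Of the 6 ciliated cell markers tested 5 were called higher too, and their part was not tested. KIF12 marked HT-29 and WiDr cells, at 42.8 and 27.9 CPM against at most 5.20 CPM in the others. Their vesicles had 15.7 and 13.8 CPM against 21.9 CPM in SNU-C1, 18.4 CPM in LS1034 and 13.6 CPM in LoVo vesicles. WiDr, SNU-C1, LS1034 and LoVo are lines of higher background. Among the lines of lower background HT-29 vesicles had the most KIF12, with 347 counts against 19.9 expected from background. The others there had 1.86 (SW480) to 11.2 CPM (LS513).

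**Figure D4:**
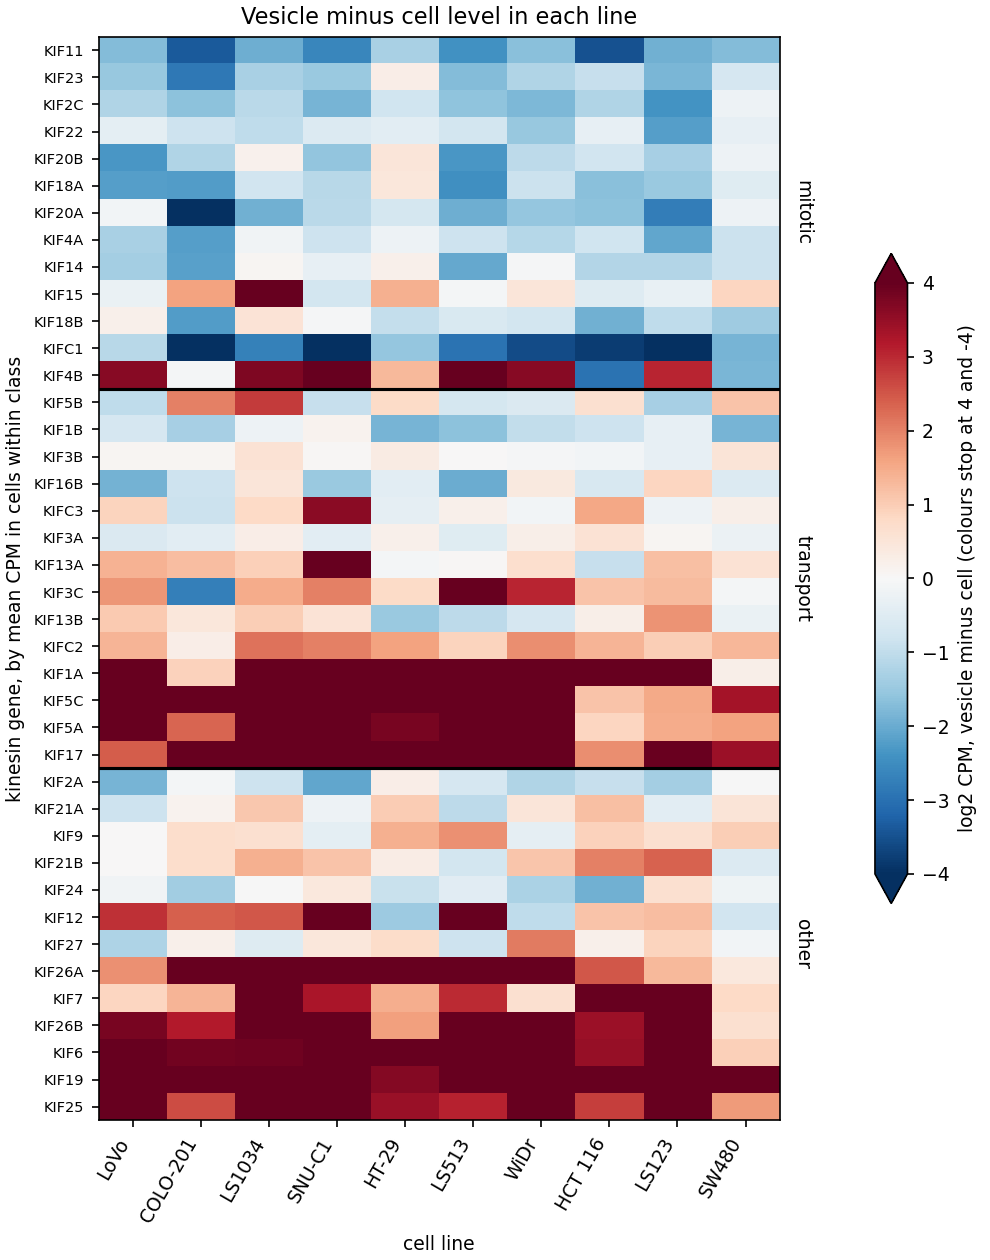
Vesicle minus cell log2 CPM (prior count 2) of all 40 kinesins (vertical axis, ordered by mean CPM in cells within each class) in the 10 lines (horizontal axis). Blue marks lower and red higher levels in vesicles, and colours stop at 4 and -4. Mitotic rows are mostly blue apart from KIF15 and KIF4B, abundant transport rows are pale, and the red rows at the foot of the other classes are kinesins with few counts in cells.

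Mitotic and transport kinesins were then set against each other within each library, as the log2 ratio of their summed CPM per kb, which does not depend on the scaling of libraries. In cells the ratio was 0.94 ± 0.74 (SD, n = 10), from -0.49 in LoVo to 1.85 in SW480, and mitotic kinesins made up 65.0% ± 11.7 of both classes. In vesicles it was -0.47 ± 0.62, from -1.38 in LS1034 to 0.55 in SW480, and their part was 42.3% ± 10.3. Mitotic kinesins outweighed transport kinesins in the cells of every line but LoVo and in the vesicles of SW480 and HT-29 only. Without KIF5B they did so in the cells of every line and in the vesicles of every line but SNU-C1 (-0.06). With KIF5B kept and the expected background subtracted, the ratio in LS123 vesicles was also above 0 (0.04).

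The ratio was lower in vesicles in 10 of 10 lines, by a mean of -1.40 ± 0.66 (SD, n = 10). COLO-201 had the greatest shift at -2.69, followed by HCT 116 at -1.90, LS1034 at -1.86 and LS123 at -1.72. SW480 shifted by -1.30, WiDr by -1.25, SNU-C1 by -1.07, LS513 by -1.04, HT-29 by -0.81 and LoVo by -0.39. No p is given, since the classes were chosen with results of these data known.

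The shift had different parts in different lines. The mitotic sum was 243 ± 82.4 CPM per kb in cells and 131 ± 70.6 in vesicles, and the transport sum 126 ± 49.0 and 193 ± 161 (SD, n = 10). In LS1034 both sums were higher in vesicles, from 174 to 241 CPM per kb for mitotic and from 125 to 627 for transport kinesins, and kinesins took 0.707% of its vesicle counts against 0.163% of its cell counts. In LoVo, whose cells are rich in KIF5B, both sums were lower, from 184 to 86.9 and from 259 to 159 CPM per kb. COLO-201 and HCT 116 combined a lower mitotic sum (298 to 102 and 390 to 157 CPM per kb) with a higher transport sum (105 to 232 and 140 to 212 CPM per kb).

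Leaving out KIF5B, the ratio was 2.53 ± 0.57 in cells and 1.21 ± 0.86 in vesicles, and the difference of -1.32 ± 0.76 (SD, n = 10) was again below 0 in 10 of 10 lines. The lines changed places: LS123 then had the greatest shift (-2.61), and LS1034 (-0.42) and HT-29 (-0.38) the smallest. SNU-C1 (-1.99), WiDr (-1.85) and HCT 116 (-1.76) came after LS123. Background was highest in SNU-C1, LS123 and WiDr, at 50.7%, 41.8% and 30.6% of vesicle counts, and 3.42% in HCT 116. It was not subtracted for the ratio without KIF5B, so its part in this order and in the shift was not tested. With KIF5B kept and the expected background subtracted the difference was -1.48 ± 0.61, below 0 in 10 of 10 lines. As a difference of class medians of log2 level the shift was below 0 in 9 of 10 lines. Without WiDr and LS123 the median difference of the ratio was -1.18, below 0 in 8 of 8 lines, against -1.27 with all lines.

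**Figure D5:**
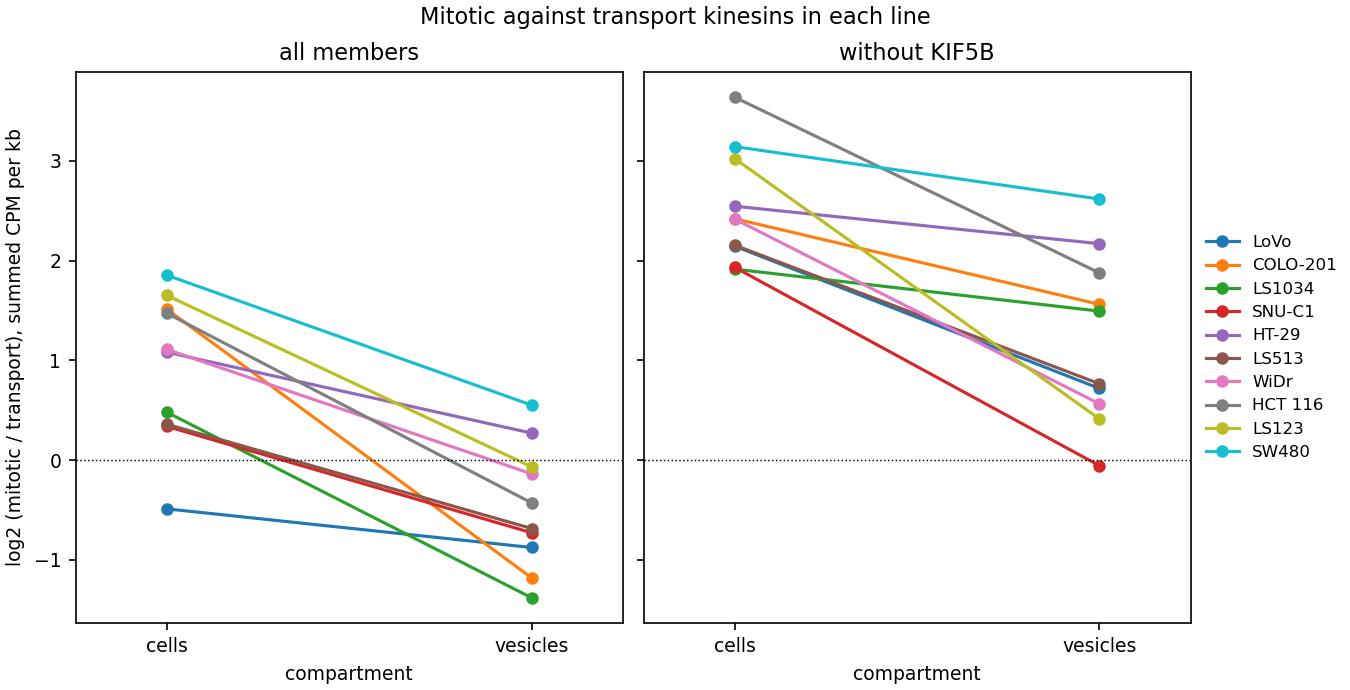
Log2 ratio of summed mitotic over summed transport CPM per kb in cells and vesicles, 1 line per cell line, with all members (left) and without KIF5B (right). All 10 lines slope down in both panels, the dotted line marks equal sums, and LoVo and COLO-201 show the smallest (-0.39) and greatest (-2.69) shift on the left.

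Across the 10 lines mitotic kinesins varied together in both compartments. The difference from transport kinesins was not tested. Among members with at least 10 CPM in cells, pairwise r of log2 CPM had a median of 0.641 for mitotic kinesins in cells, positive in 66 of 66 pairs, and of 0.593 in vesicles, positive in 63 of 66. For transport kinesins the medians were -0.03 (18 of 36 positive) in cells and 0.277 (26 of 36) in vesicles, and for all kinesins 0.128 (192 of 325) and 0.181 (212 of 325). The points share library depth, scaling and the closely similar line pairs, so these values are descriptions. Within a gene, vesicle and cell levels over the lines had a median r of 0.434 for mitotic, 0.411 for transport and 0.443 for all 10036 genes in that range. Among members in that range KIF3B (0.908), KIF3A (0.754), KIF23 (0.735) and KIF2C (0.720) followed their cells most closely. KIFC3 (-0.10), KIF24 (0.0342), KIF11 (0.0996), KIF5B (0.128) and KIF14 (0.128) hardly did.

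Partners of these motors were read from 3 lists, against 28.1% of all genes tested called lower and 28.6% higher, or 42.2% and 5.29% of genes with 10 CPM or more in cells. Of 24 spindle and cytokinesis partners 16 were lower and 2 higher, with a median of -1.03. BUB1B, the checkpoint kinase that CENPE engages, changed by -1.71 (SE 0.24, edgeR adjusted p = 4.11e-05) and TPX2, which targets Aurora A and KIF11 to spindle microtubules, by -1.78 (SE 0.26). The 2 called higher were INCENP, the scaffold of the chromosomal passenger complex (0.86, SE 0.34), and CIT, the citron kinase that binds KIF14 (0.78, SE 0.27). CENPE, itself a kinesin by sequence outside the symbol rule, was not called (0.74, SE 0.48, adjusted p = 0.198). With the background subtracted 9 of the 24 were lower and 2 higher, against 21.7% and 16.3% of all genes.

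Of 24 kinesin adaptors and cargo linkers 8 were lower and 6 higher (median -0.24), near the shares over all genes. CLSTN1, which links vesicles to kinesin light chains, had the smallest adjusted p at -2.94 (SE 0.28, edgeR adjusted p = 1.65e-06), followed by TRAK2, the mitochondrial adaptor of kinesin-1, at 4.22 (SE 0.55, adjusted p = 1.74e-05). TRAK2 rose from 63.8 ± 21.0 to 1519 ± 1166 CPM (SD, n = 10), while its paralog TRAK1 was lower in 10 of 10 lines (-0.92, SE 0.16). The other 5 called higher were KLC3, MAPK8IP1, MAPK8IP2, FEZ1 and HAP1, each with a mean under 7 CPM in cells, and the light chains KLC1 (-0.47), KLC2 (0.27) and KLC4 (0.23) did not pass. Of 26 dynein and dynactin genes, the minus-end machinery, 9 were lower and 2 higher (median -0.51), near the median of -0.53 of genes with 10 CPM or more in cells. DCTN4 (-1.66, SE 0.33) and PAFAH1B1 (LIS1; -1.09, SE 0.24) had the smallest adjusted p, and DYNC1I1 (3.10, SE 1.01) and DYNLL2 (0.80, SE 0.28) were higher. With the background subtracted the adaptors had 4 lower and 4 higher, and the dynein list 3 lower and 5 higher.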

How the data were processed

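The authors deposited raw read counts for each gene, 1 column per library, with 0 value columns left unmapped; STAR, featureCounts and hg19 are named per the submitters' processing notes, and versions, annotation and strand setting are not given in the sources used here. Counts were fitted with edgeR 4.0.16 (R 4.3.3): TMM scaling, filterByExpr by compartment, a robust quasi-likelihood fit with cell line as a block, and Benjamini-Hochberg adjustment over all genes tested (threshold 0.05). Each SE was derived from the log2 fold change and its F statistic (|log2 fold change| / √F). Log2 CPM used a prior count of 2. Exon lengths came from GENCODE 29 (GRCh38), matched by symbol for 17089 of 17113 genes. A number pairs the cell and vesicle library of 1 line, as labelled. Over genes that averaged 10 CPM or more in cells, the deviations of the paired libraries from the compartment means correlated at 0.223 to 0.640. Vesicles matched the cells of their own line best in 10 of 10. DESeq2 1.42.0, other scalings and filters, lines left out, and background subtraction were alternatives.

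Members, classes and lists were chosen with earlier results of these data known. Every member may be named; libraries were described for the 4 mitotic, 4 transport and 3 other kinesins of highest level per kb, the 3 most variable in cells, members called against their class, and, in each list, the 2 smallest adjusted p and the calls in the rarer direction. KIFC1, KIFC2, KIF3C, KIF5A and other members given by library outside that rule were chosen after their values were seen. Leaving out KIF15, and leaving out WiDr and LS123, were added after seeing the data.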

Additional observations from a re-analysis of the deposited data

Results flagged for a closer look

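KIF16B in vesicles was highest in LS1034, at 156 CPM, against 39.8 CPM in the next library (SNU-C1). On the log2 scale this gap was more than 0.50 of the whole range over the 10 vesicle libraries. LS1034 also had the highest KIF16B level among cells, at 111 CPM, next to SNU-C1 at 110 CPM. Of 33 groups of log2 levels examined in this way 1 stood out, and chance alone does so in about 1 of 20.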

How the results depend on the processing

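The median shift of the mitotic over transport ratio stayed below 0 under every alternative run, from -1.76 (difference of class medians, where 9 of 10 lines were below 0) to -1.18 (without WiDr and LS123) and from -1.30 to -1.25 with 1 line left out. Counts of calls moved more. For all kinesins lower (13), the 5 lines of lower background gave 8, DESeq2 size factors 7, background subtraction 7, library size alone 6 and upper-quartile scaling 3, and leaving out 1 line 7 (without LoVo) to 14. For all kinesins higher (13) the 5 lines gave 7, DESeq2 20 and upper-quartile scaling 22, and leaving out 1 line 10 to 15. Mitotic kinesins lower (11) were 7 in the 5 lines, 7 with DESeq2 size factors, 6 after background subtraction, 6 with library size alone, 3 with upper-quartile scaling and 6 to 11 with 1 line left out. Mitotic kinesins higher (0) were 2 with DESeq2, 1 with its size factors, 2 with library size alone, 1 with no expression filter, 2 with upper-quartile scaling, 2 without the line block and 0 to 1 with 1 line left out. Transport kinesins lower (1) were 0 with DESeq2 size factors, library size alone and upper-quartile scaling, 2 without WiDr and LS123, and 1 to 2 (without LS123) with 1 line left out; those higher (6) were 3 in the 5 lines, 11 with upper-quartile scaling and 5 to 6 with 1 line left out. Other kinesins lower (1) were 0 in the 5 lines, with DESeq2, with its size factors, after background subtraction, with library size alone, with upper-quartile scaling and without WiDr and LS123, and 0 (without LoVo) to 1 with 1 line left out; those higher (7) were 4 in the 5 lines and 5 to 8 with 1 line left out. Of all calls over all genes, TMM gave 50.4% as higher, DESeq2 size factors 65.5%, library size alone 69.2% and upper-quartile scaling 79.8%.

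Some uncalled members changed sign. KIF3A (-0.08) was at 0.29 with DESeq2, 0.29 with its size factors, 0.39 with library size alone, 0.66 with upper-quartile scaling and 0.32 without LoVo. KIF13B (0.17) was at -0.39 in the 5 lines and -1.01 after background subtraction, KIF24 (-0.52) at 0.23 and KIF16B (-0.60) at 0.13 with upper-quartile scaling. KIF27 (0.18) was at -1.70 after background subtraction, -0.12 without WiDr and LS123 and -0.012 without WiDr, and KIF5B (0.24) at -0.016 without LS1034. Beyond the scaling itself the cause was not tested. Without the replicate block, which the pairing by line supplies, mitotic kinesins were lower in 9 and higher in 2 cases. Vesicle depth down to 1.75 M counts limits what can be said of members with few counts.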
